A study of Mus musculus with 12 samples.

Results

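Loci of the reelin response and of radial neuronal migration were followed through maps of histone H3 acetylated at lysine 27 (H3K27ac), a mark of active promoters and enhancers, in embryonic mouse cortex. The 10 genes, Dab1, Vldlr, Lrp8, Dclk1, Pafah1b1, Cdk5, Cdk5r1, Rnd2, Rnd3 and Cxcr4, were chosen by their known roles, with earlier results of these data already known. All 10 were found among 21887 protein-coding genes of the reference table, and all 10 were among the 15359 genes with enough covered length to be tested. Whole cortex was collected at E15.5. The WT group carried Prdm16 flox/flox without Cre, and the cKO group carried Emx1-Ires-Cre with Prdm16 flox/flox, so that the floxed alleles were present in both. Emx1 drives Cre in progenitors of the dorsal telencephalon and their progeny, so cells of other origin in the lysate keep Prdm16, which encodes a PR-domain chromatin regulator of neural progenitors. Each genotype had 3 H3K27ac libraries. Whether the replicates are separate animals is not labelled, so the p-values here measure sample-to-sample spread that may be technical.

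Reelin is a secreted glycoprotein that Cajal-Retzius cells release at the surface of the developing cortex. It binds the lipoprotein receptors encoded by Vldlr and Lrp8, which leads to phosphorylation of the adaptor encoded by Dab1 in migrating neurons. The other genes also act in neuronal migration: Dclk1 and Pafah1b1 in microtubule and nuclear movement, Cdk5 and Cdk5r1 as a neuronal kinase and its activator, Rnd2 and Rnd3 as atypical small GTPases, and Cxcr4 as the receptor of the chemokine CXCL12.

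The files used here are peak lists, 1 per library, and they do not give the depth in reads. The lists held 48168 to 75563 peaks and covered 53.9 to 92.1 Mb. WT replicate 3 had the shortest list and WT replicate 2 the longest. The unit used throughout is covered length, the number of bases that peaks cover in a gene and its 20 kb flanks, scaled to the same total covered length in every list. WT replicate 3 had the largest scaling factor (1.35). Before scaling, its length was the lowest of the WT libraries at each of the 10 loci. Where it ranks high below, that order rests on the scaling. Identifiers of the libraries set replicates 1 and 2 of both genotypes (called batch A here) apart from replicate 3 of both (batch B). At the deleted gene, Prdm16, covered length was 80928, 76294 and 80857 bp in WT and 94626, 95103 and 99981 bp in cKO (limma adjusted p = 0.359), which, as a length summed over the locus, is no check of the deletion. The mean covered share over the windows of 6 cortical progenitor markers was 34.8 to 49.8% in WT and 40.8 to 45.5% in cKO, and that of 6 projection neuron markers 36.3 to 51.6% and 42.9 to 46.9%. The mean over the windows of 3 intermediate progenitor markers was 37.2 to 46.6% and 38.4 to 40.2%, with 0 of 3 log2 changes positive. That over 7 interneuron markers, of a cell type from outside the Emx1 lineage, was 31.2 to 45.2% and 38.8 to 43.3%, with 7 of 7 changes positive (median 0.15) and 0 passing. Over all tested genes 65.3% of changes were positive, and 5 of 6 were among the progenitor and 5 of 6 among the projection neuron markers. The list means of Cajal-Retzius, endothelial, microglial, meningeal and red cell markers were 1.69 to 5.39% over all libraries. Single genes of these lists ranged more widely, with Aif1 at 11.3 to 16.3% and Tek, Foxd1 and Hbb-bt at 0 in all 6. Of the tested Cajal-Retzius markers 1 of 4 changes was positive (median -0.15), with 2 at an unadjusted limma p below 0.05 and 0 passing. Among tested microglial markers it was also 1 of 4 (median -0.15), with 1 below that p and 0 passing. Changes were positive at 3 of 3 endothelial, 1 of 2 meningeal and 3 of 3 red cell markers tested. The part of cell makeup in the values below was not tested.

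None of the 10 loci passed the test for a difference between genotypes. Over all tested genes 0.69% passed (limma on log2 covered length with batch as a covariate, adjusted p below 0.05), 57 of them longer and 49 shorter in cKO. At an unadjusted p below 0.05, 0 of the 10 passed against 9.95% of all tested genes. In 0 of the 10 did the WT and cKO libraries fail to overlap, against 11.6% of all tested genes. The log2 changes ran from -0.11 at Lrp8 to 0.24 at Cdk5r1, 4 positive and 6 negative, with a median of -0.01. Of all tested genes 65.3% had a positive change and the median was 0.05, and the central 95% of them lay between -0.35 and 0.37. Standard errors were 0.11 to 0.13. The 95% intervals of the 10 changes reached from -0.34 at the lowest (Lrp8) to 0.52 at the highest (Cdk5r1), and that of Vldlr from -0.26 to 0.23. Each interval gives the changes that are not excluded at its own locus only. Limma adjusted p-values were 0.608 to 0.995. In a lysate of whole cortex a change in cell makeup and a change in acetylation per cell cannot be told apart.

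**Figure D1:**
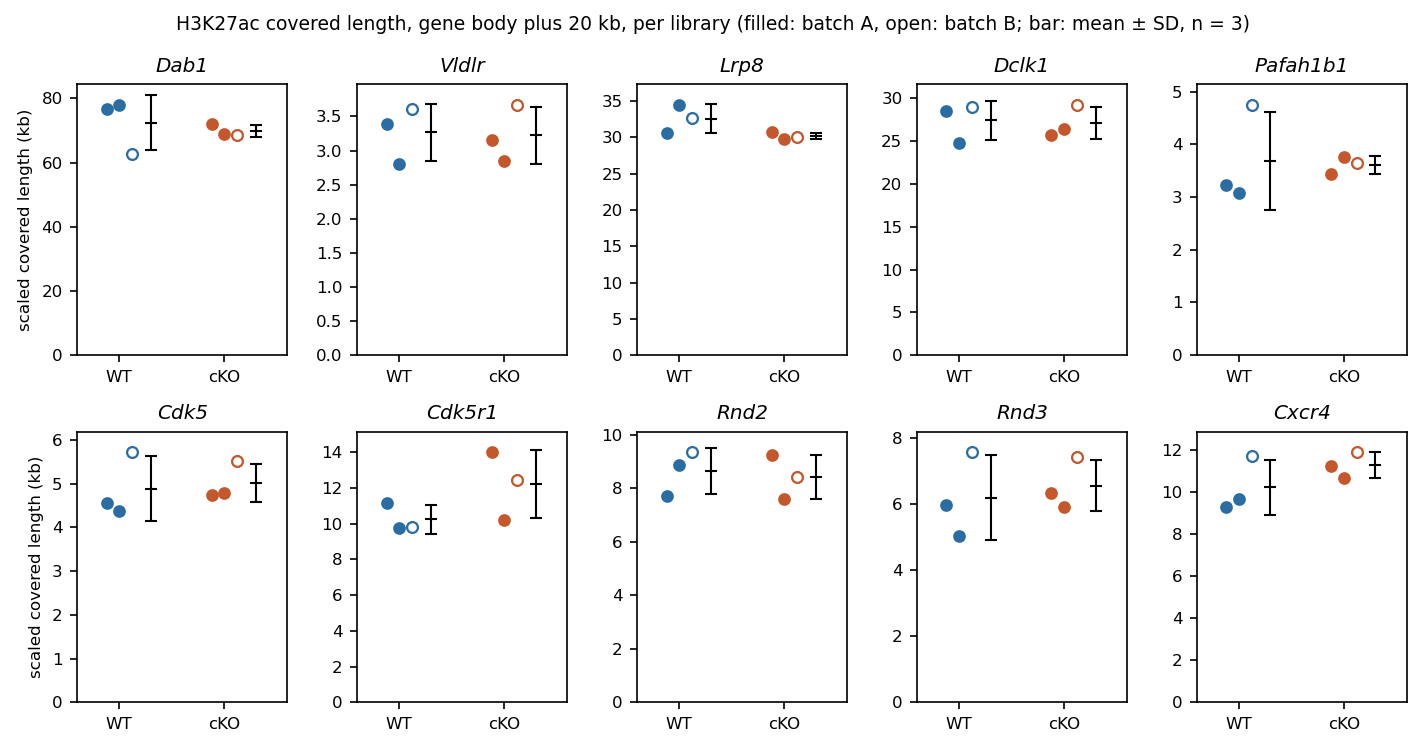
Scaled H3K27ac covered length (kb, from 0) of each gene and its 20 kb flanks, 1 panel per gene; each point is a library (filled for batch A, open for batch B) and each bar the mean ± SD of 3 libraries. WT and cKO points overlap in all 10 panels, with the cKO points of Cdk5r1 reaching 14011 bp against 11171 bp for the highest WT point.

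**Figure D2:**
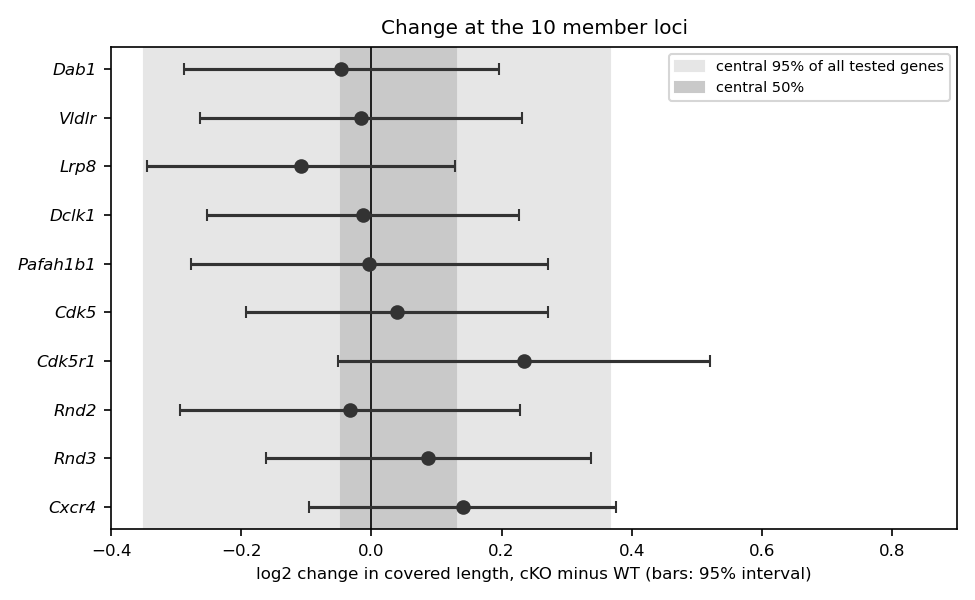
Log2 change in covered length (cKO minus WT, x axis) for each of the 10 genes with its 95% interval, over bands that hold the central 95% and 50% of the changes of all 15359 tested genes. All 10 intervals include 0, and all 10 points lie inside the band from -0.35 to 0.37.

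How much of each locus was acetylated differed more between genes than between genotypes. Peaks covered 28.4% of the Lrp8 window in WT and 26.3% in cKO, more than in 98.5% of tested genes. Cdk5r1 followed with 23.2% and 27.7%, then Cxcr4 with 23.2% and 25.6% and Rnd2 with 19.8% and 19.3%. Rnd3 had 10.6% and 11.2%, Cdk5 8.73% and 8.96%, Dclk1 8.15% and 8.07% and Dab1 6.22% and 5.99%. Vldlr (4.20% and 4.15%) and Pafah1b1 (4.07% and 3.99%) were lowest, below the median of 5.56% over tested genes. In this order, the libraries of Cdk5r1 and Cxcr4, of Cdk5 and Dclk1, and of Vldlr and Pafah1b1 overlapped within both genotypes. Lrp8 and Cdk5r1 were apart in WT only, Rnd3 and Cdk5 in cKO only, and Cxcr4 and Rnd2 in cKO only. Rnd2 and Rnd3, Dclk1 and Dab1, and Dab1 and Vldlr were apart within both genotypes. These shares are of the scaled covered length, and each window adds the same flanks to a gene body of 3.7 kb (Rnd2) to 1125.3 kb (Dab1).

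Dab1, the adaptor gene, spans chr4:103619500-104744844 (mm10) and held the most peaks, with 79, 94 and 50 in the WT lists and 69, 62 and 65 in the cKO lists. Its scaled covered length was 76592, 78091 and 62659 bp in WT and 72084, 68929 and 68563 bp in cKO. The cKO values lay between the lowest and the higher WT values, and the low WT value was that of replicate 3. The means were 72447 ± 8510 bp and 69859 ± 1936 bp (SD, n = 3), a log2 change of -0.05 ± 0.11 (SE, 95% interval -0.29 to 0.20, limma adjusted p = 0.916). The change was -0.13 within batch A and 0.13 within batch B, so its sign did not hold across batches. Of the covered length, 99.3% lay inside the gene body, and 0 other protein-coding genes overlap the window.

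RefSeq lists a distal and an internal start for Dab1 on the plus strand, and their promoters are shown because the peaks differed between the 2 starts. Each sequence runs from 250 bases before to 50 bases after the start (RefSeq, GRCm38.p6), with CG dinucleotides in capitals. CG reads the same on both strands.
Dab1 distal start, chr4:103619250-103619549: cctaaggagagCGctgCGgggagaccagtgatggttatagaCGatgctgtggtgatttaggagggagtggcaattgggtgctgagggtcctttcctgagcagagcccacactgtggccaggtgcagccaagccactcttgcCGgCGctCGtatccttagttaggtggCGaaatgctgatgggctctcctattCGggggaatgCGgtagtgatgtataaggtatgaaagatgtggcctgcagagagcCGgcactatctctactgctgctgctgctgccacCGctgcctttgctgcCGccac
Dab1 internal start, chr4:104367288-104367587: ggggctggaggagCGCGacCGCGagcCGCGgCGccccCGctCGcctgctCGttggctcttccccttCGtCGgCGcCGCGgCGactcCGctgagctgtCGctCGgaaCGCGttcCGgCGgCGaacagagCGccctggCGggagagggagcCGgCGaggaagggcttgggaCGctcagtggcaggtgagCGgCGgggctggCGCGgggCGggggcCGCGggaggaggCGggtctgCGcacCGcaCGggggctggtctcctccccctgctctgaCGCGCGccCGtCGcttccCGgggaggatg
The distal promoter holds 12 CG and the internal one 46, more than 98.4% of the 32851 RefSeq promoters. A peak covered the internal start in all 6 lists, 4580 to 7180 bp wide, with the authors' fold enrichment, a value of their peak caller, between 10.03 and 12.04. At the distal start all 6 lists had a peak with a fold of 4.18 to 6.12, but only those of WT replicates 1 and 2 covered the start base, beginning at -333 and -281 bp from it. The peak began past the start in WT replicate 3 (92 bp) and in cKO replicates 1, 2 and 3 (12, 41 and 65 bp), so the genotypes overlapped in where it began. Over all promoters, the start base was covered in all 6 lists for 9.3% of those with fewer than 10 CG, 64.9% of those with 10 to 19 and 88.3% of those with 20 or more. CG content is a description of these windows and not a site of binding.

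Within the Dab1 window the 6 lists merged into 101 regions, and 42 had a peak in every list. The region that ranked highest by the lowest of its 6 -log10 q values was neither start: it lay inside the gene at chr4:104269286-104271450, at -97.2 kb from the internal start, with a fold of 10.8 to 17.7 and a log2 change of -0.00 ± 0.14 (SE). A single region of 465 bp, at chr4:104620608-104621072 and 253.3 kb past the internal start, had a peak in all 3 WT lists and in no cKO list. Its unscaled covered length was 433, 431 and 374 bp in WT and 0 bp in each cKO list. The 3 WT peaks were weak, with a fold of 4.11, 4.79 and 4.26 and a -log10 q of 3.91, 6.06 and 3.49, and an absent peak can be a signal just under the authors' threshold. Across the 10 windows 1 of 169 regions was WT-only, against 0.907% of the 85907 regions of the genome, and 0 were cKO-only, against 0.347%. These genome-wide shares depend on list length. They stand for 779 WT-only and 298 cKO-only regions, where lists cut to equal length gave 580 and 629.

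In the region test the same 465-bp region had the one adjusted p below 0.05 among the 119 regions tested in these windows (limma on log2 of scaled covered length plus 200 bp, log2 change -1.59 ± 0.15, SE, adjusted p = 0.0245). It reached the minimum mean of 200 bp only through its WT lengths, 378, 340 and 505 bp after scaling against 0 in every cKO library, so this p restates the WT-only pattern and is not separate evidence. Of all 55985 tested regions 0.582% passed as shorter in cKO and 0.284% as longer. The call depended on the setting and held in 5 of the 12 alternatives that tested it (adjusted p 0.0054 to 0.341). It was lost when limma's variances were allowed to follow the mean (adjusted p = 0.334), with a replicate block (0.109), with a pseudocount of 1000 bp (0.112), without the length minimum (0.0757) and without cKO replicate 1 (0.105) or cKO replicate 2 (0.108). Without any 1 WT library the region fell below the minimum and was not tested. When only peaks with -log10 q of 5 or more were kept, it was no longer WT-only. In simulated covered lengths the region test did not find the changes planted in them, so regions that did not pass are not shown to be alike.

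Another Dab1 region, at chr4:104395289-104396184 and 28.2 kb past the internal start, had the next smallest p and was chosen for naming after its values were seen. Its unscaled covered length was 870, 876 and 538 bp in WT and 0, 0 and 235 bp in cKO. All WT values were above all cKO values, and the change did not pass (log2 change -1.80 ± 0.29, SE, limma adjusted p = 0.119). The Dab1 region at chr4:104325868-104326939 had an unadjusted p below 0.05 and did not pass either (log2 change -0.77, limma adjusted p = 0.459). The same held for the Lrp8 region at chr4:107861279-107861837 (0.72, limma adjusted p = 0.451). Of the 119 regions tested in the windows of all genes followed here, 6 had an unadjusted limma p below 0.05. They include the regions named below at Dclk1 and past Rnd2. Over the genome 5759 of 55985 tested regions did, a larger share, so such p-values do not set these windows apart. The genome-wide share of regions without overlap between genotypes is not given here.

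**Figure D3:**
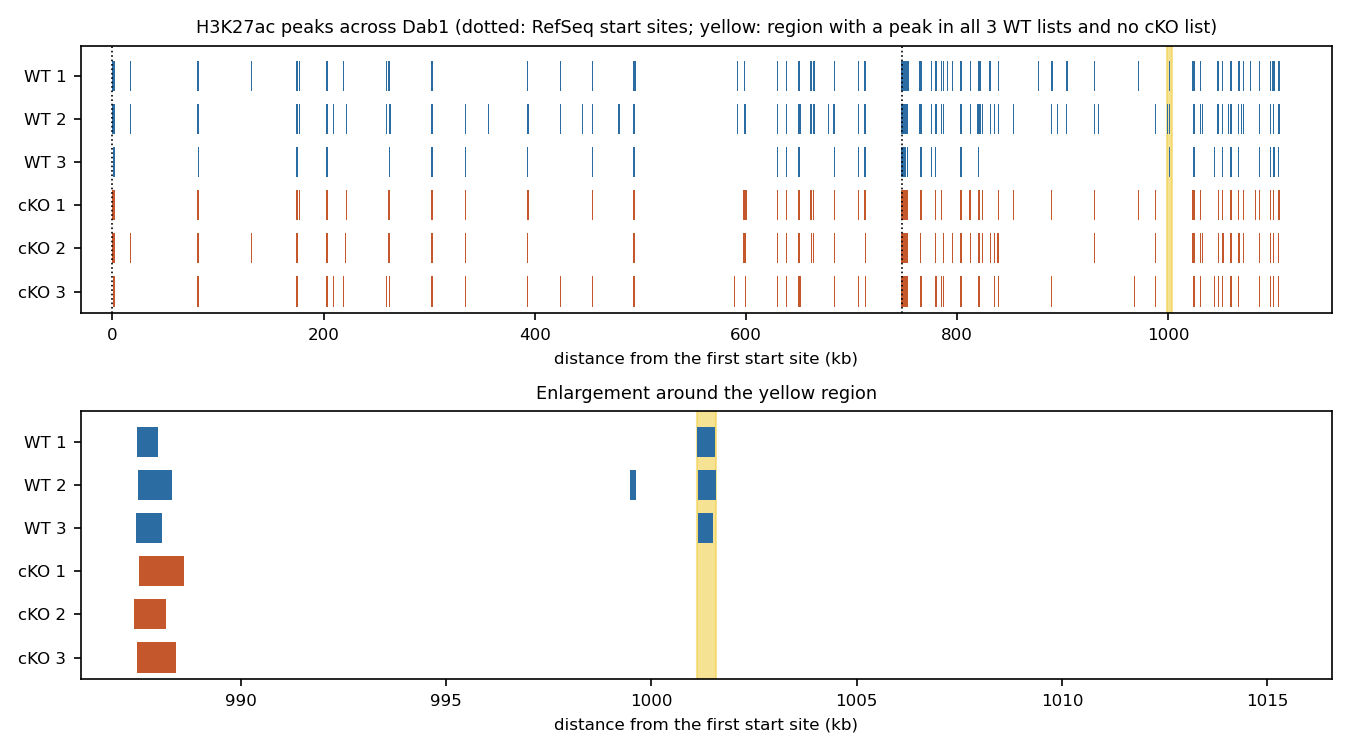
H3K27ac peaks of each library along Dab1 (x axis, distance in kb from the distal start; blue WT, orange cKO; dotted lines, the RefSeq starts), with an enlargement around the region that had a peak in all 3 WT lists and in none of the cKO lists (yellow). Of 101 merged regions 42 have a peak in all 6 rows, and WT replicate 3, with 50 peaks, has the sparsest row.

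Because the region test missed planted changes, 15 further settings were tried after the data had been seen, crossing a variance trend, robust variances, a minimum of 1000 bp and a restriction to regions with a peak in all 6 lists. Over these 16 settings the genome-wide count of passing regions ran from 25 to 485. The Dab1 region was tested in 4 of them and passed in 2. In 11 of the 16 settings 0 regions of the 10 windows passed. A region past Rnd2, described with that gene, passed in 3 of the 16.

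The receptor gene Vldlr (chr19:27216480-27254231) had a covered length of 3393, 2805 and 3603 bp in WT and 3156, 2846 and 3675 bp in cKO. The genotypes overlapped throughout, and the highest scaled value of each was that of replicate 3 (log2 change -0.02 ± 0.11, SE, limma adjusted p = 0.97). Before scaling, WT replicate 3 was the lowest in WT (3884, 3551 and 2668 bp). Both of its RefSeq starts lay under 1 peak of 2668 to 3213 bp that was present in all 6 lists with a fold of 10.9 to 14.6. The second of its merged regions, 5.7 kb past the gene, was in 4 lists.

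Lrp8, which encodes the other reelin receptor, lies at chr4:107802200-107876840. Its covered length was 30596, 34515 and 32658 bp in WT and 30675, 29771 and 30075 bp in cKO. The cKO values were at or below the lowest WT value apart from cKO replicate 1, which exceeded WT replicate 1 by less than the spread in WT. The means were 32590 ± 1960 bp and 30174 ± 460 bp (SD, n = 3), a log2 change of -0.11 ± 0.11 (SE, 95% interval -0.34 to 0.13, limma adjusted p = 0.82), with -0.10 within batch A and -0.12 within batch B. The peak at its first start reached a fold of 12.6 to 17.3. The merged region at chr4:107819376-107839237, 19862 bp long, covered both internal RefSeq starts, whose promoters hold 5 and 4 CG. In WT replicates 1 and 2 both of these starts lay under 1 peak, 13520 and 19351 bp wide, while in WT replicate 3 and the cKO lists they lay under separate peaks of at most 5834 bp. The break was thus not particular to a genotype. Its covered length did not pass (log2 change -0.15 ± 0.14, SE). The window also holds Magoh and Czib, and neither passed.

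**Figure D4:**
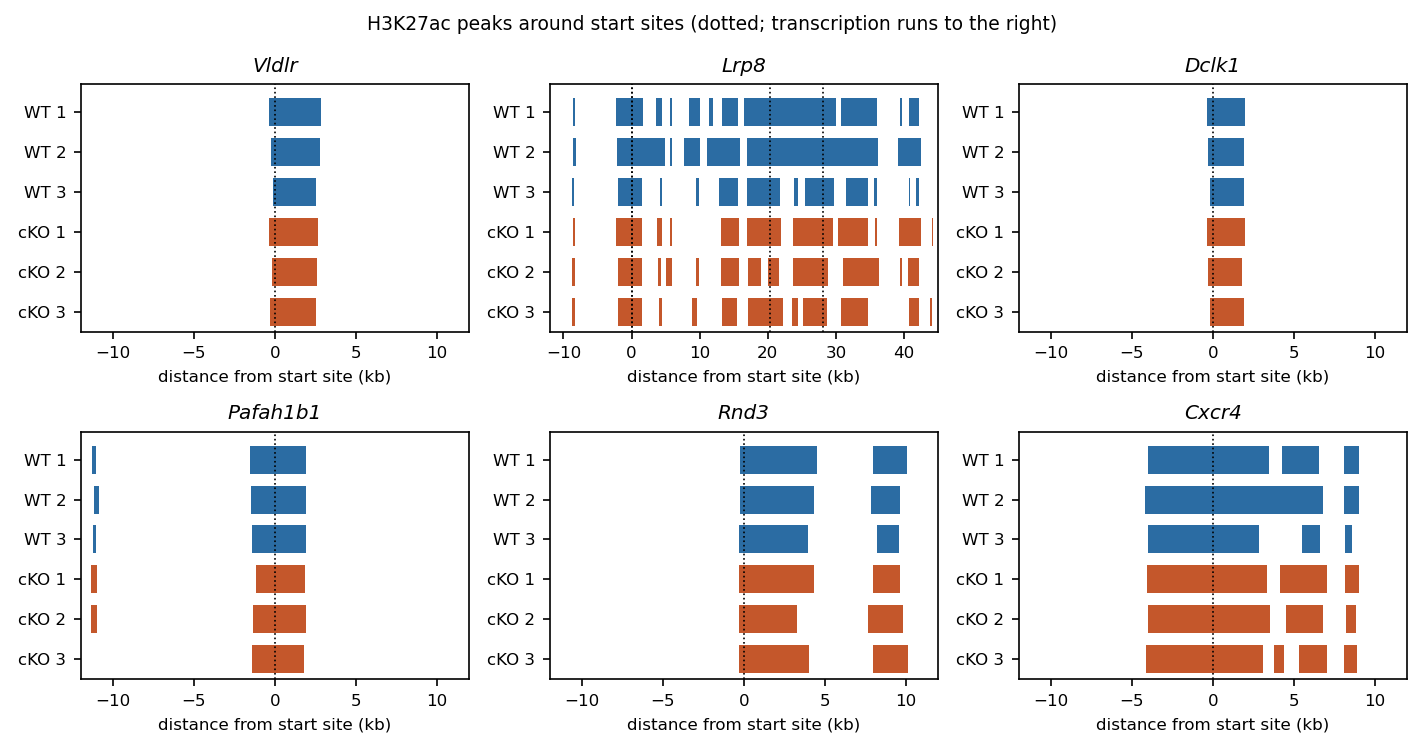
H3K27ac peaks per library (blue WT, orange cKO) around the first RefSeq start (dotted) of Vldlr, Lrp8, Dclk1, Pafah1b1, Rnd3 and Cxcr4, with distance in kb in the direction of transcription; the Lrp8 panel marks its later starts too. Each first start lies under a peak in all 6 lists, and the later Lrp8 starts share a peak in WT replicates 1 and 2 and have separate peaks in the other lists.

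Dclk1, which encodes a doublecortin-like kinase bound to microtubules, lies at chr3:55242303-55539068. Covered length was 28498, 24787 and 29031 bp in WT and 25739, 26480 and 29282 bp in cKO, and the groups overlapped (log2 change -0.01 ± 0.11, SE, limma adjusted p = 0.976). Its promoters are shown because they hold few CG and were nevertheless acetylated in all 6 lists. They are given as for Dab1 (RefSeq, GRCm38.p6, plus strand, CG in capitals).
Dclk1 first start, chr3:55242114-55242413: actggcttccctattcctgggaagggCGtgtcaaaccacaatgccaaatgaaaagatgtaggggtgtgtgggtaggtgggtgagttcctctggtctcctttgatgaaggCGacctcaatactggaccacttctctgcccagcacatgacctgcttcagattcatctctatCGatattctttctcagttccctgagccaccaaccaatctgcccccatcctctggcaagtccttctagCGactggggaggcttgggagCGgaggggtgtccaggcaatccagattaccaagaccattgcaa
Dclk1 second start, chr3:55461478-55461777: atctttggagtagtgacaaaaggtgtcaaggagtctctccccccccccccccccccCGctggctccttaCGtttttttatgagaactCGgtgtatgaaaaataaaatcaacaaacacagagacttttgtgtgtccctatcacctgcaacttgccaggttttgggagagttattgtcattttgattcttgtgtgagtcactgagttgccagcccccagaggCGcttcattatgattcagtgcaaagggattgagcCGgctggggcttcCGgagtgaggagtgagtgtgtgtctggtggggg
They hold 5 and 6 CG. This was not particular to Dclk1, since the first Vldlr start (8 CG) and the internal Lrp8 starts (5 and 4 CG) were also covered in all 6 lists. The peak over the first Dclk1 start had a fold of 14.0 to 18.8, above that of at least 96.6% of the peaks in each list. The peak over the second start had a fold of 7.70 to 9.29. A region between them at chr3:55446819-55448757, at -13.9 kb from the second start, was among those with the smallest p in the 10 windows and was chosen for naming after its values were seen. Its unscaled covered length was 1648, 1658 and 1258 bp in WT and 882, 924 and 910 bp in cKO. All cKO values were below all WT values, and the change did not pass (log2 change -0.54 ± 0.14, SE, limma adjusted p = 0.318).

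Pafah1b1 encodes LIS1, a regulator of the motor dynein, and lies at chr11:74673949-74724384. Its covered length was 3220, 3072 and 4753 bp in WT and 3430, 3759 and 3644 bp in cKO. After scaling, WT replicate 3 was high and both other WT libraries were below every cKO library. Before scaling, WT replicate 3 was the lowest in WT (3686, 3889 and 3520 bp). The log2 change was -0.00 ± 0.13 (SE, limma adjusted p = 0.995), with 0.17 within batch A and -0.34 within batch B. Leaving out WT replicate 3 gave 0.17 again, since with batch in the model that fit rests on the batch A contrast and is no separate check. Most of the length came from 1 peak of 3030 to 3456 bp over the start, with a fold of 14.7 to 18.9 in all 6 lists. That promoter holds 27 CG. The neighbour Cluh did not pass.

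Cdk5, the gene of a cyclin-dependent kinase active in neurons, lies at chr5:24407597-24423587. Covered length was 4556, 4377 and 5727 bp in WT and 4732, 4786 and 5526 bp in cKO, with replicate 3 highest in both after scaling (log2 change 0.04 ± 0.11, SE, limma adjusted p = 0.924). Only 13.4% of it lay inside the gene body, since Atg9b, Abcb8, Asic3, Slc4a2 and Fastk also overlap the window and none of these passed. The peak at its high-coordinate end, chr5:24422866-24426100, reaches into Slc4a2 and was present in all 6 lists with a fold of 7.63 to 8.75. The region with the highest enrichment, chr5:24393704-24395116, lies in Abcb8.

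Cdk5r1 encodes p35, the activator of that kinase, and had the largest change of the 10. The gene lies at chr11:80477023-80481184, and its covered length was 11171, 9760 and 9805 bp in WT and 14011, 10208 and 12440 bp in cKO. Replicates 1 and 3 of the cKO exceeded every WT library, while cKO replicate 2 lay within the WT range. The means were 10245 ± 802 bp and 12220 ± 1911 bp (SD, n = 3), a log2 change of 0.24 ± 0.13 (SE, 95% interval -0.05 to 0.52) that did not pass (limma unadjusted p = 0.0997, adjusted p = 0.608). It was positive within both batches, at 0.19 and 0.33. Leaving out 1 library at a time gave 0.12 to 0.37. A region of 6623 bp at chr11:80475391-80482013 covered the whole gene in the merged lists and had a fold of 10.9 to 16.6 (log2 change 0.20 ± 0.14, SE). Of the other 6 regions, 4 overlap Myo1d and 1 Psmd11, and neither of these neighbours passed. Over the 6 libraries the log2 covered lengths most like that of Cdk5r1, outside its window, were those of Mmp11 (Pearson r = 0.998), Mt3 (0.995) and Gpr153 (0.994), and 66 of 15356 genes had r above 0.9. This is a description over 6 libraries that share batches and list lengths.

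Rnd2 (chr11:101468175-101471853) encodes an atypical small GTPase that acts when neurons leave the multipolar stage. Its covered length was 7700, 8887 and 9366 bp in WT and 9265, 7620 and 8442 bp in cKO, interleaved between genotypes (log2 change -0.03 ± 0.12, SE, limma adjusted p = 0.944). The gene body held 9.3% of it, and 3 other protein-coding genes overlap the window, Ifi35, Vat1 and Brca1, with none passing. A peak at the gene itself, chr11:101467479-101469189, was in all 6 lists with a fold of 7.32 to 8.51. The highest enrichment lay 5.2 kb past the high-coordinate end, at chr11:101477063-101480719, with a fold of 9.72 to 13.0.

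A further region at chr11:101483683-101485976, 11.8 kb past Rnd2, was chosen for naming after its values were seen. It lies closer to Brca1, whose gene body begins at chr11:101488761, than to Rnd2. Which gene it serves was not tested. Its unscaled covered length was 2142, 2140 and 499 bp in WT and 744, 693 and 397 bp in cKO. Within batch A both WT values exceeded both cKO values, while WT replicate 3 was lower than cKO replicates 1 and 2, so the genotypes overlapped. The region test did not call it (log2 change -0.87 ± 0.20, SE, limma adjusted p = 0.256). Over the 16 settings its adjusted p ran from 0.0252 to 0.283.

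Rnd3 (chr2:51130439-51149111) encodes the related GTPase RND3, which acts on the actin cytoskeleton of migrating neurons. Covered length was 5983, 5036 and 7588 bp in WT and 6344, 5916 and 7430 bp in cKO, with replicate 3 highest in both after scaling (log2 change 0.09 ± 0.11, SE, limma adjusted p = 0.858). It came from 2 regions, both in all 6 lists and both inside the gene. The peak over the start is among the strongest at the 10 loci, with a fold of 13.5 to 18.9, and the promoter under it is shown for that reason (RefSeq, GRCm38.p6, minus strand, CG in capitals).
Rnd3 start, chr2:51149062-51149361: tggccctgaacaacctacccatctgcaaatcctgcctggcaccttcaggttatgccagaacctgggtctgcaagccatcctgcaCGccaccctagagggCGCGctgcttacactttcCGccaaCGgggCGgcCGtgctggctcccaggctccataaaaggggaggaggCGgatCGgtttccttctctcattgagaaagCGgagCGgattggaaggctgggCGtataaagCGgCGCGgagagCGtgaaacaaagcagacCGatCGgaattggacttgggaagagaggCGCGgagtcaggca
It holds 20 CG, more than 73.5% of RefSeq promoters. The other region, 8.9 kb into the gene and named after its values were seen, had unscaled lengths of 2093, 1806 and 1374 bp in WT and 1695, 2127 and 2192 bp in cKO, and it did not pass (log2 change 0.28 ± 0.18, SE, limma adjusted p = 0.666).

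Cxcr4, the chemokine receptor gene, lies at chr1:128588199-128592299. Covered length was 9299, 9648 and 11721 bp in WT and 11223, 10678 and 11909 bp in cKO. After scaling, both batch A values of the WT were below every cKO value, and WT replicate 3 was above cKO replicates 1 and 2. Before scaling, WT replicate 3 (8680 bp) was below every cKO library. The log2 change was 0.14 ± 0.11 (SE, 95% interval -0.10 to 0.38, limma adjusted p = 0.742), with 0.20 within batch A and 0.02 within batch B. A domain of 11242 bp at chr1:128585226-128596467 covered the whole gene and both flanks next to it, with a fold of 8.19 to 10.9. The peak over the start was 6870 to 10960 bp wide in all 6 lists, wider than at Vldlr, Dclk1, Pafah1b1 or Rnd3. Widths at the Dab1 internal start (up to 7180 bp) and the first Lrp8 start (up to 7012 bp) overlapped that range. Peaks over the internal Lrp8 starts reached 19351 bp.

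The wider pathways were described with 65 further genes in 5 lists, all of which were tested. Of these, 1 passed as longer and 0 as shorter, against 0.69% of all tested genes in either direction. At an unadjusted p below 0.05 there were 7 (10.8%, against 9.95% of all tested genes), and 67.7% of the changes were positive against 65.3%, with a median of 0.05 as over all tested genes. Among the 65 the genotypes did not overlap at Filip1, Cables1, Limk1, Cdc42, Ackr3 and Pik3r1 (longer in cKO) and Srgap2 (shorter). Of all tested genes 11.6% did not overlap. Filip1, which encodes a filamin A interacting protein that restrains the start of radial migration, was the one that passed. Its covered length was 6393, 6066 and 6135 bp in WT and 10108, 9665 and 9477 bp in cKO, with every cKO library above every WT library. It rose from 6198 ± 173 bp to 9750 ± 324 bp (SD, n = 3), a log2 change of 0.61 ± 0.11 (SE, limma adjusted p = 0.0241). The call was lost in 12 of the 18 alternatives in which it was tested (adjusted p 0.00429 to 0.701). It was lost on leaving out WT replicate 1 (0.0524), WT replicate 2 (0.115), WT replicate 3 (0.134) or cKO replicate 3 (0.128), and with flanks of 100 kb the change was 0.16. The fits without WT replicate 3 and without cKO replicate 3 both rest on the batch A contrast, so they are not separate checks.

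In the list of 18 reelin signalling genes 0 passed, and the median change was 0.01 with 9 positive and 9 negative. Reln itself, the ligand gene, had a log2 change of -0.00. The smallest p-values were those of Rapgef1, the Rap1 exchange factor downstream of Crk adaptors (-0.38 ± 0.13, SE, limma adjusted p = 0.292), Limk1, a kinase that acts on cofilin (0.29), and the adaptor gene Nck2 (-0.28). At Limk1 the genotypes did not overlap, with 7303 to 8253 bp in WT and 9350 to 9898 bp in cKO. Among 18 microtubule and nuclear movement genes, 0 passed and 15 changes were positive and 3 negative (83.3% positive, against 65.3% of all tested genes), with a median of 0.06 against 0.05. The smallest p-values were those of Kif2a, a microtubule-depolymerizing kinesin (-0.17), and the tubulin genes Tubb2b (0.15) and Tubg1 (0.13).

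Of 9 genes around Cdk5, 0 passed (5 positive, 4 negative). Cables1, which links Cdk5 to the kinase Abl, came closest, with 6133, 5991 and 5797 bp in WT and 7486, 8493 and 9287 bp in cKO. Every cKO library was above every WT library, and the change of 0.46 ± 0.12 (SE) did not pass (limma adjusted p = 0.112). Of 17 genes of the cytoskeleton and the multipolar-to-bipolar transition, Filip1 alone passed, and Cdc42 had a log2 change of 0.24 (limma adjusted p = 0.501). Dpysl2 (0.17) and Rapgef2 (0.13) had the next smallest p among the genes around Cdk5, and Mapk8 (0.25) the next after Cdc42, and these did not pass. Of 4 chemokine signalling genes 0 passed and 4 of 4 changes were positive, where 65.3% of all tested genes were, from 0.05 to 0.29 at Ackr3, the gene of a scavenging receptor for CXCL12 (limma adjusted p = 0.419). Cxcl12, the ligand of Cxcr4, had a log2 change of 0.11 and Gnai2, a G protein subunit gene, of 0.09.

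**Figure D5:**
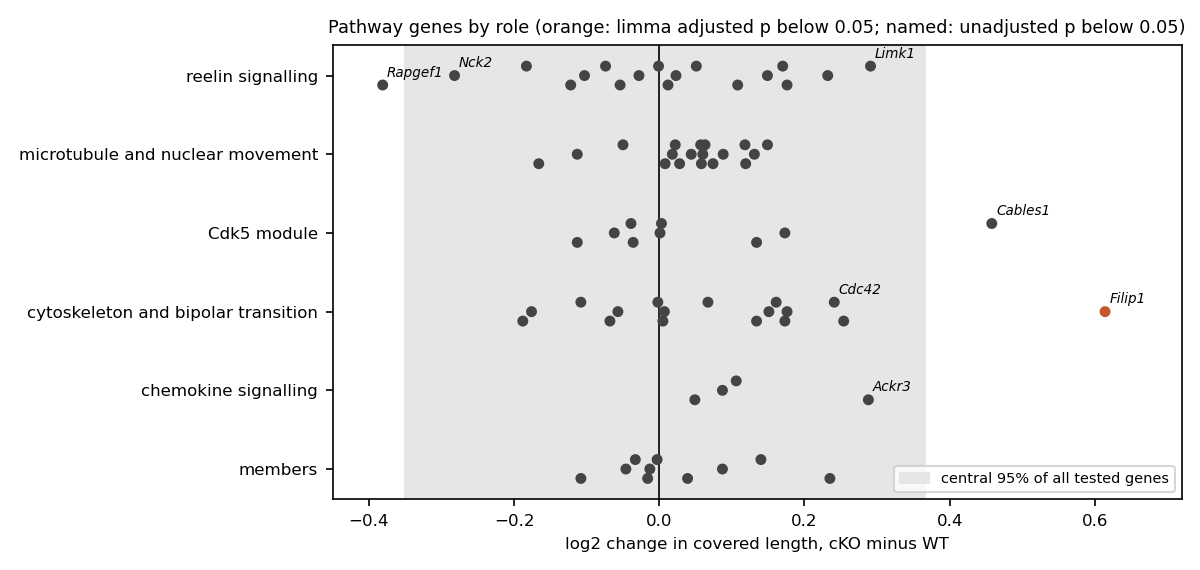
Log2 change in covered length (cKO minus WT, x axis) of each pathway gene by list and, in the bottom row, of the 10 genes described here; vertical scatter within a row only separates the points. Filip1 (orange, 0.61) is the one gene with a limma adjusted p below 0.05, and Cables1 (0.46) and Rapgef1 (-0.38) also lie outside the band of the central 95% of tested genes.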

How the data were processed

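H3K27ac was measured in 3 WT and 3 cKO libraries of E15.5 cortex; the 6 input libraries were not used. The submitters' processing notes name MACS2 2.1.1, Bowtie2 2.2.8, cutadapt, FastQC and the build mm10; the sources used here give neither their parameters nor any use of input as control. Each library has 1 deposited broad peak list. Per peak it holds the authors' values: a fold enrichment ratio, -log10 p and -log10 q, and a display score that was left aside. The fold and -log10 q served only to describe, rank or filter peaks within a list.

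Covered length per gene (body plus 20 kb on each side) was scaled to each list's total, raised by 500 bp, put on a log2 scale and tested by limma 3.58.1 (R 4.3.3; batch as covariate, trend and robust off) over genes with a mean of at least 1000 bp. Regions merged from the 6 lists (200 bp added, mean of at least 200 bp) were tested likewise. A call is an adjusted p below 0.05 (Benjamini-Hochberg, over all genes or all regions). Log2 changes understate changes of short lengths, and covered length does not measure peak height. Batch was read from library identifiers and what it stands for is not stated. Gene positions and promoters came from RefSeq tables of GRCm38.p6; all 118 listed genes matched by symbol, and 7 of the 10 genes had a promoter entry.

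The 10 genes and the lists were chosen with earlier results of these data known. Named besides the 10 were pathway genes that passed, the 3 smallest p per list, neighbours, and regions that passed, were in 1 genotype only or were strongest per gene. Other regions were chosen for naming after their values were seen. On simulated data the gene test recovered most of the larger planted changes, and the region test recovered none of the planted changes, which led to 15 further region settings chosen after seeing the data. Alternatives covered peak threshold, list length, batch, replicate block, pseudocount, length minimum, scaling, window and leaving out each library.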

Additional observations from a re-analysis of the deposited data

How the results depend on the processing

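All 10 loci stayed uncalled in every alternative run. Sizes are log2 changes, all uncalled. Signs differed from the reported ones with quantile normalization at Dab1 (0.030), Dclk1 (0.009) and Cdk5 (-0.002); without scaling at Cdk5 (-0.061), Rnd3 (-0.014) and Gnai2 (-0.020); with stricter peaks (-log10 q of 5 or more) at Vldlr (0.019), Cxcr4 (-0.031) and Kif2a (0.025); in equal-length lists at Pafah1b1 (0.042) and Rapgef1 (0.222). They also differed with 2 kb around gene ends at Vldlr (0.094), Lrp8 (0.073), Pafah1b1 (0.032), Rnd2 (0.162), Kif2a (0.039), Dpysl2 (-0.007) and Gnai2 (-0.032), with the gene body alone at Vldlr (0.031) and Pafah1b1 (0.049), and with the gene body plus 100 kb at Vldlr (0.103), Pafah1b1 (0.098) and Cdk5 (-0.011). With 1 library left out, Vldlr ran from -0.077 to 0.057, Dclk1 from -0.066 to 0.047, Pafah1b1 from -0.085 to 0.168 and Rnd2 from -0.125 to 0.028. Cdk5 and Rnd2 fell below the minimum with the gene body alone.

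The genome-wide count of 106 genes was 38 with the stricter peaks, 58 in equal-length lists, 39 with batch left out of the model, 39 and 208 with pseudocounts of 100 and 2000 bp, 23 without the minimum, 42 with the gene body alone, 1 without scaling (1 longer, 0 shorter), 22 with quantile normalization (8 longer, 14 shorter) and 42 when scaled to the sum over gene windows, a setting added after seeing the data. It was 2 to 232 with 1 library left out. The pathway count of 1 was 2 with the pseudocount of 2000 bp, when Cables1 also passed (limma adjusted p = 0.0381), and 0 with the stricter peaks, in equal-length lists, without batch, with the pseudocount of 100 bp, without the minimum, without scaling, with quantile normalization, around gene ends and with 100 kb flanks, and 0 to 1 with 1 library left out.

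Of all regions 485 passed, and 169 with a pseudocount of 1000 bp, 72 without the minimum and 321 without scaling. It was 0 to 1354 with 1 library left out. In the settings added after seeing the data it was 43 with a variance trend and 33 with robust variances as well. With regions in all 6 lists only, it was 26, or 25 with robust variances, 83 with a trend and 99 with both. With a minimum of 1000 bp it was 106, or 199 with robust variances, 125 with a trend and 206 with both, and with both restrictions 214, 260, 234 and 278. The count of 1 in the 10 windows was 0 with the pseudocount of 1000 bp, without the minimum and in 11 of the 16 settings. It was 0 to 4 with 1 library left out, and 4 was reached without WT replicate 3 or cKO replicate 3. Both of those fits rest on the batch A contrast. WT-only regions in the windows numbered 2 with the stricter peaks, 4 where at least 50% of the region had to be covered and 1 to 7 with 1 library left out; cKO-only regions numbered 0 to 1. Leaving out a list relaxes that rule by its own construction. The cause of the other changes was not tested.

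Replicate numbers were shared by WT and cKO, and deviations of same-numbered libraries correlated at 0.13, 0.06 and 0.26. WT replicates 1 and 3 correlated best with the cKO library of the same number, and WT replicate 2 with cKO replicate 1 (0.17). These low values neither show nor exclude a pairing, and the samples were treated as sharing only a number. With a replicate block 168 genes, 0 of all regions and 0 regions of the 10 windows passed. The peak lists used here give no read counts, which limits every value, and a peak missing from a list does not show that acetylation was absent.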
